A study of Arabidopsis thaliana with 8 samples.

Results

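The comparison set the double mutant cob-6sfr6-3 against the Columbia wild type (Col-0, WT) in Arabidopsis seedlings. It described which transcripts differed from WT in plants that carry both alleles. It used 4 of the 8 libraries of the study, 2 of each genotype, and the total gene reads of each gene. The other libraries were 2 of cob-6 and 2 of sfr6-3, which are given beside the results. The seedlings were 7 days old and kept in 24 h light, and total RNA was read as 100-base pairs. The double mutant carries cob-6, an allele of COB, and sfr6-3, an allele of MED16, each single mutant carries 1 of them, and no treatment is named for any group. The labels say nothing of how the alleles were made, of how many lines stand for a genotype, or of separate cultures, so a p-value here covers no more than library-to-library spread, which may be technical.

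COB encodes a glycosylphosphatidylinositol-anchored wall protein that expanding root cells need to lay cellulose down in order. MED16, also known as SFR6, is a tail subunit of the Mediator complex, which links transcription factors to RNA polymerase II. In Arabidopsis it is known for its part in the expression of cold-regulated genes, of defence genes and of genes of the iron deficiency response. The series title names MED16 as a suppressor of the cobra mutant, so the double mutant is a cob-6 plant in which that suppressor gene is mutated. Transcript levels of whole seedlings cannot tell fewer cells of a type from less RNA per cell.

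WT replicate 1 stood apart from the rest. It held 324504432 gene reads, against 24011199 to 37744914 in the other 7 libraries, and in 0 of 25179 genes did it have fewer unique reads than those 7 together. It cannot be treated as independent of the others on these counts, so the counts, the lists and the leading genes are also given with WT replicate 2 as the only wild type, a fit in which that lone library is assumed to vary like the others. The double mutant replicates correlated least of the 4 pairs, at r = 0.934 across genes against 0.965 to 0.975, where genes are not independent replicates. Levels are given as CPM, reads scaled to the library total, and a floor of 3 reads came to 0.00928 CPM for WT replicate 1 and between 0.0807 and 0.123 CPM for the rest, which covers counting error only. Seedling tissue was present in all libraries: the 13 markers of green tissue summed to 39346 to 57135 CPM and the 8 root markers to 100 to 145 CPM.

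Both targeted genes were low in the double mutant. COB (AT5G60920, chromosome 5, 24511196 to 24514129) stood at 143 and 239 CPM in WT replicates 1 and 2 and at 82.5 and 70.3 CPM in double mutant replicates 1 and 2. The double mutant libraries lay near those of cob-6, at 68.3 and 66.9 CPM, and below those of sfr6-3, at 187 and 187 CPM. The change from WT was -1.32 ± 0.21 (log2, SE) with an adjusted p of 0.0124. MED16 (AT4G04920, chromosome 4, 2497644 to 2505535) stood at 24.3 and 34.5 CPM in WT and at 10.8 and 7.48 CPM in the double mutant, near the 8.59 and 8.45 CPM of sfr6-3 and below the 29.3 and 39.1 CPM of cob-6. That was a change of -1.68 ± 0.24 with an adjusted p of 0.00829. With WT replicate 2 alone the changes were -1.64 for COB and -1.92 for MED16. Without double mutant replicate 2 both calls were lost, with -1.21 and an adjusted p of 0.103 for COB and -1.43 and an adjusted p of 0.0525 for MED16. COB was the sole called member of the 8 tested genes of its family, and MED16 the sole one of 16 tested Mediator subunits. The other family and complex members had adjusted p-values above 0.05 in either direction, with medians of -0.24 and -0.07 over the whole lists.

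**Figure D1:**
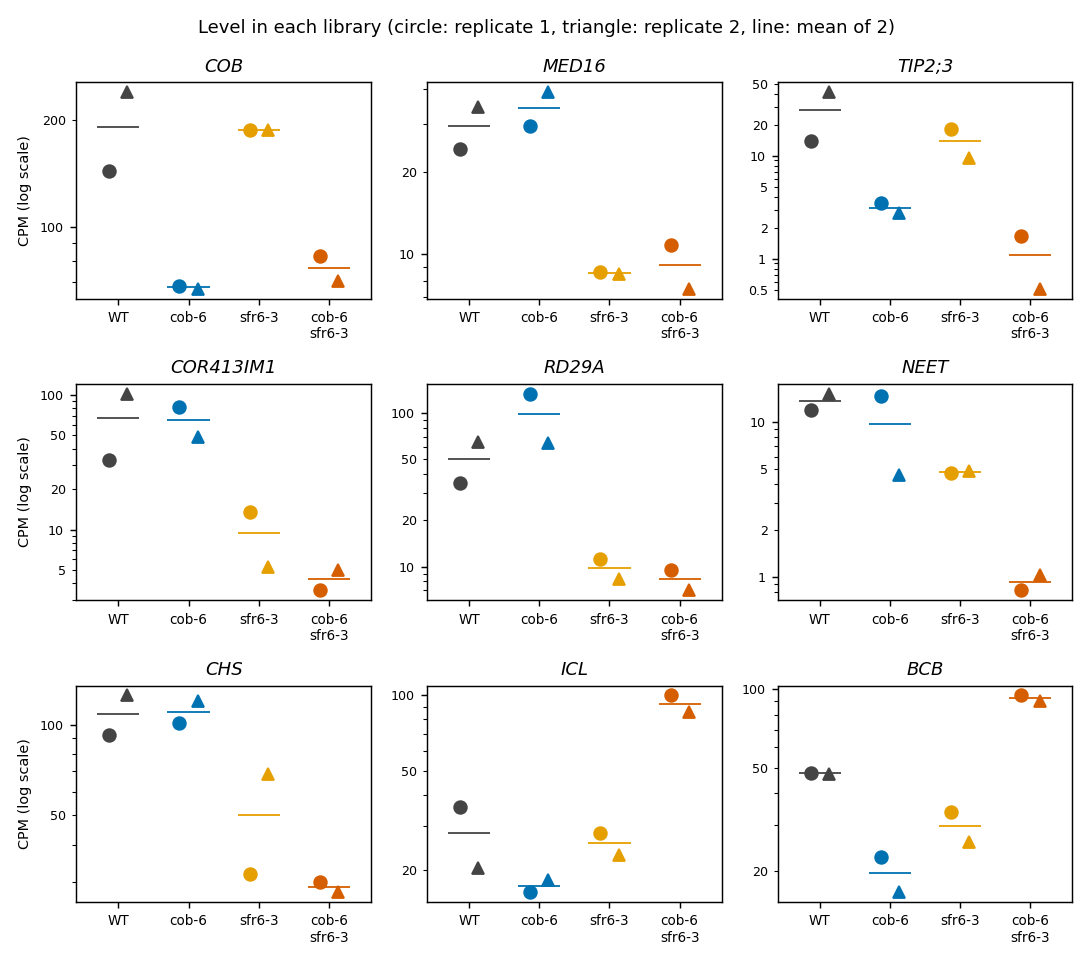
Level of 9 genes in every library, in CPM on a log axis that differs between panels; circles are replicate 1, triangles replicate 2, lines the mean of 2. COB and MED16 in the double mutant lie at the level of the single mutant in the same gene, and ICL and BCB in the double mutant lie above all other libraries.

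The difference between the double mutant and WT was mostly one of lower transcript levels. A call in this comparison does not say that the gene differed from WT in cob-6 as well. Of 21384 genes tested, 181 (0.846%) were called at an adjusted p below 0.05, of which 171 (0.8%) were lower and 10 (0.0468%) were higher in the double mutant. Among the lower genes 155 fell at least 2-fold and 59 at least 4-fold, and 5 of the higher ones rose at least 2-fold. All 181 had no overlap between the groups in CPM, a state found in 22.4% of all tested genes for lower and 22.3% for higher values. In 168 of the 171 lower genes WT replicate 1 lay between WT replicate 2 and the double mutant mean. With WT replicate 2 as the only wild type, 767 genes (3.45%) were called, 526 lower (2.37%) and 241 higher (1.09%), and these held all 181. In that fit all 181 kept their sign, 176 lay farther from 0 and 8 moved by over 1.5 times. Among the 181, 14 had under 50% unique reads. Of the 181, 167 were also called with WT replicate 2 alone in total reads, with unique gene reads, and in unique reads after subtracting from WT replicate 1 what the other 7 libraries held, which by itself called 748 genes (3.56%), 217 higher (1.03%) and 531 lower (2.53%). Calls depended on single libraries: leaving out WT replicate 2 gave 75 calls, leaving out the first double mutant library 229 and leaving out the second 76, and 34 of the 181 were called in each of the 4 fits that leave 1 library out. The fit without WT replicate 2 has WT replicate 1 as its only wild type, the library that cannot be treated as independent of the others. A call lost or kept in that fit, here and below, is therefore no measure of the gene by itself. All 4 leave-one-out fits share libraries with the fit that chose the genes, so a call kept in each of them is a description. With all 8 libraries, 3093 genes (14.5%) had an unadjusted p below 0.05 in edgeR, 1288 higher (6.02%) and 1805 lower (8.44%). DESeq2 called 736 (3.44%). The 7 libraries taken off WT replicate 1 include both of the double mutant. Taking their reads off leaves WT replicate 1 relatively higher in genes low in the double mutant, and lower in genes high there. Changes in that fit, here and below, are therefore tilted away from 0, and its calls are no separate check.

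**Figure D2:**
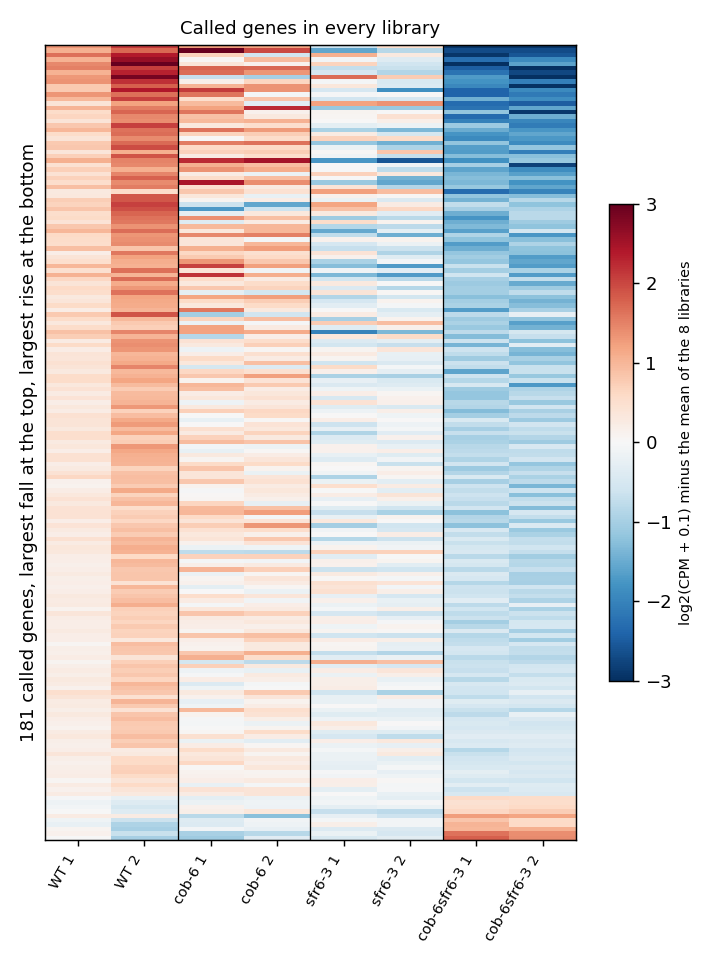
The 181 called genes in rows and the 8 libraries in columns, coloured by log2(CPM + 0.1) minus the mean of the 8 libraries. The double mutant columns are blue over the 171 lower genes and red over the 10 higher ones at the bottom, and WT replicate 2 is the reddest column over the lower genes.

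**Figure D3:**
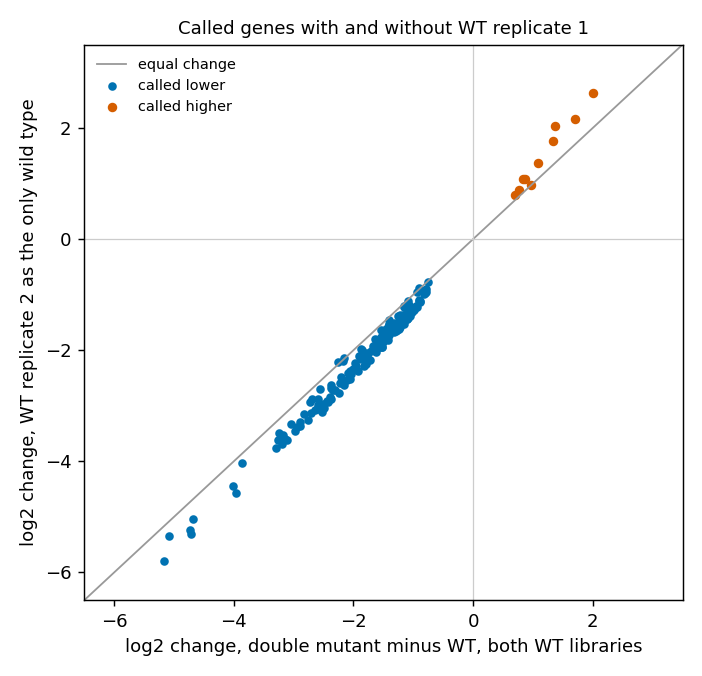
Change of the called genes in the double mutant against WT (log2) with both WT libraries on the horizontal axis and with WT replicate 2 alone on the vertical axis; the line marks equal change, and 4 strongly lower genes lie outside the plotted range. Nearly all points lie farther from 0 on the vertical axis, with the same sign on both.

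The largest falls among well-expressed genes with a symbol included those of TIP2;3, UMAMIT17 and NEET. TIP2;3 (AT5G47450, chromosome 5, 19248249 to 19249504), a tonoplast aquaporin of roots, stood at 13.9 and 41.5 CPM in WT and at 1.67 and 0.511 CPM in the double mutant, a change of -4.72 ± 0.61 with an adjusted p of 0.00527, or -5.31 with WT replicate 2 alone. Both double mutant libraries lay below both of cob-6, at 3.46 and 2.79 CPM, and of sfr6-3, at 18.2 and 9.54 CPM. UMAMIT17 (AT4G08300), of the amino acid transporter family UMAMIT, went from 12.1 and 25.8 CPM to 2.22 and 1.61 CPM (-3.30 ± 0.37, adjusted p = 0.0039; -3.76 with WT replicate 2 alone). NEET (AT5G51720, chromosome 5, 21009592 to 21010345), an iron-sulphur cluster protein of plastids and mitochondria, went from 12 and 15.3 CPM to 0.816 and 1.02 CPM (-3.87 ± 0.49, adjusted p = 0.00516; -4.03 with WT replicate 2 alone). The sfr6-3 libraries stood between, at 4.68 and 4.83 CPM, as did cob-6 replicate 2 at 4.56 CPM, while cob-6 replicate 1, at 14.8 CPM, lay within the WT range. These 3 genes were called in every fit that leaves out 1 of the 4 libraries, as was ATDR4 (AT1G73330), at 125 and 281 CPM in WT and 22.7 and 31.9 CPM in the double mutant (-2.89 ± 0.35). Calls lost in 1 to 3 of those fits were those of PKP4, a pyruvate kinase family member, PMAT2, a malonyltransferase of phenolic glucosides, IAMT1, which methylates the auxin indole-3-acetic acid, and the annexin ANNAT7. Their changes were -3.20, -2.97, -2.95 and -2.76, and without double mutant replicate 2 they were -2.48, -3.08, -3.05 and -2.76, with adjusted p-values of 0.168, 0.0573, 0.0593 and 0.0916. Without WT replicate 2 those of PKP4, IAMT1 and ANNAT7 were 0.181, 0.0905 and 0.195, and without double mutant replicate 1 that of ANNAT7 was 0.0523. Among the water channels, TIP2-2 (-2.16 ± 0.31) and the plasma membrane aquaporin PIP2-4 (-1.14 ± 0.22) were called lower as well; they were picked after their values were seen. Without double mutant replicate 2 their adjusted p-values were 0.0593 and 0.145, and those of PIP2-4 without replicate 1 and without WT replicate 2 were 0.0591 and 0.319.

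A pair of called genes had no read in the double mutant. RL2 (AT2G21650, chromosome 2, 9259583 to 9260656), a small MYB-related protein, held 600 and 80 reads in WT, 46 and 41 in cob-6, 10 and 27 in sfr6-3 and 0 and 0 in the double mutant. Against a floor of 3 reads over both double mutant libraries, 0.0477 CPM, its WT mean of 2.55 CPM was at least 53.5-fold higher. POT5 (AT4G13420), the high-affinity potassium transporter also known as HAK5, held 404 and 50 reads in WT, 130 and 59 in cob-6 and 3 and 7 in sfr6-3. With 0 reads in the double mutant, it was at least 34.4-fold lower there than the WT mean of 1.64 CPM. Both genes thus ran low in sfr6-3 and lower in the double mutant. With only 10 and 27, or 3 and 7, reads in the sfr6-3 libraries, these levels rest on few counts. The call of POT5 was lost without double mutant replicate 2 (adjusted p = 0.0643).

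Cold-regulated genes were divided. Of 17 tested members of the list, 3 were called lower and 0 higher, against 0.8% lower of all genes. The list's median change was 0.21 beside 0.02 for all genes. DESeq2 called 5 lower and 1 higher, where it called 3.44% of all genes. Without overlap in CPM 8 members were lower and 6 higher, against 22.4% and 22.3% of all genes. COR413IM1 (AT1G29395, chromosome 1, 10288197 to 10289621), a cold-induced protein of the chloroplast inner envelope, stood at 3.54 and 5 CPM in the double mutant against 33 and 102 CPM in WT, with cob-6 at 82 and 48.7 CPM and sfr6-3 at 13.5 and 5.27 CPM. The sfr6-3 and double mutant libraries were all below the WT and cob-6 libraries, and the change from WT was -3.96 ± 0.55 with an adjusted p of 0.0071, or -4.57 with WT replicate 2 alone. RD29A (AT5G52310, chromosome 5, 21240849 to 21243613), a hydrophilic protein induced by cold and dehydration, stood at 9.56 and 7 CPM in the double mutant against 35.1 and 65.2 CPM in WT, with cob-6 at 134 and 64.2 CPM and sfr6-3 at 11.2 and 8.27 CPM. It showed the same division of libraries, with a change of -2.60 ± 0.36 and an adjusted p of 0.00795, or -2.98 with WT replicate 2 alone. The dehydrin LTI30 (AT3G50970) went from 9.43 and 15.3 CPM to 2.99 and 2.88 CPM (-2.06 ± 0.30, adjusted p = 0.00978). Without double mutant replicate 2 these 3 calls were lost, with adjusted p-values of 0.0525, 0.0722 and 0.0525, and that of LTI30 also without WT replicate 2 (0.0643). With WT replicate 2 alone 6 members were called lower, against 2.37% of all genes, the further ones being KIN2 (-2.32), ERD10 (-1.14) and COR413-PM1 (-1.04). COR15A, at 0.351 to 1.65 CPM in the 8 libraries, and the activators CBF1, CBF2 and CBF3, at 0 to 3.17 CPM, had adjusted p-values of 0.618 to 0.907. The list's median moved to -0.47 without double mutant replicate 1, to -0.60 without replicate 2 and to -0.17 with at least 10 reads required in each of the 4 libraries, so its sign carries no direction.

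The promoters of these genes are shown for the core of the element that the CBF activators bind, CCGAC, which reads GTCGG on the other strand, and known as CRT/DRE. The runs are the 250 bases before the RefSeq gene start in the TAIR10.1 assembly, on the gene's strand, and capitals mark CCGAC or GTCGG. RD29A (chr5:21240467-21240716, plus strand) and COR413IM1 (chr1:10289667-10289916, minus strand) are the called genes whose window touches no other gene, and COR15A (chr2:17712331-17712580, minus strand) is a cold gene that was low in all genotypes.
RD29A: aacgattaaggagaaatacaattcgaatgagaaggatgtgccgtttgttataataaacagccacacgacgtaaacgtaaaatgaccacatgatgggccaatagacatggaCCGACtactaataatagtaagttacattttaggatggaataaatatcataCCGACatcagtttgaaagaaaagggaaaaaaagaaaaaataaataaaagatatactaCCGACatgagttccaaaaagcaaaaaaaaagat
COR413IM1: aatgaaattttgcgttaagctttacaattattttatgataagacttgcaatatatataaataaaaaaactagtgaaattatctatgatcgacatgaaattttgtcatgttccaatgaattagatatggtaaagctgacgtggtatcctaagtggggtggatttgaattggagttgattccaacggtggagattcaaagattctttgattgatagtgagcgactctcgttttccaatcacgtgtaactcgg
COR15A: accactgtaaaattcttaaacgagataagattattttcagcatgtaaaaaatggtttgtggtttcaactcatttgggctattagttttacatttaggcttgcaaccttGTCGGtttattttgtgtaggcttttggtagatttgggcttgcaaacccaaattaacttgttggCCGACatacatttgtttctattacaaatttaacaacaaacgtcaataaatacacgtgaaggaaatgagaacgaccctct
RD29A held 3 copies, at -140, -90 and -33 from the RefSeq start, COR15A held 2, at -142 and -79, and COR413IM1 held 0 in this window. The RefSeq start lies upstream of the gene start printed above, by 132 bases for RD29A and 45 bases for COR413IM1. Over all 27443 protein-coding genes 12% of such windows held the core, and 29.4% of the 17 cold-regulated genes did (5 genes). Among 167 called lower genes with a window 13.2% held it, beside 12.7% of 20515 tested genes. The core of the abscisic acid response element, ACGTG, which reads CACGT on the other strand, stood in 33.5% of the windows of the called lower genes and in 24% of those of tested genes. A CACGTG run counts on both strands for the second core. A match describes letters in the window and not a bound site.

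Some genes of wall remodelling and wall glycoproteins were called lower. Of 28 tested genes of xyloglucan enzymes and expansins 3 fell and 0 rose, against 0.8% lower of all genes, with a list median of -0.39. With WT replicate 2 alone 6 fell, against 2.37%, and the median was -0.58, and without it the median was -0.16. EXLB1 (AT4G17030, chromosome 4, 9581586 to 9583290), an expansin-like protein, went from 8.98 and 13.9 CPM in WT to 1.52 and 1.26 CPM (-3.04 ± 0.33, adjusted p = 0.00347), and the sfr6-3 libraries, at 2.26 and 1.68 CPM, were low too, unlike those of cob-6 at 14 and 11 CPM. XTH15 went from 15.9 and 46.7 CPM to 5.56 and 5.22 CPM (-2.52 ± 0.40, or -3.12 with WT replicate 2 alone), and XTH22 from 60.4 and 158 CPM to 23.7 and 22.4 CPM (-2.24 ± 0.43); both encode xyloglucan endotransglucosylase/hydrolases, which cut and rejoin the glucan tethers of the wall. EXLB1 kept its call whichever of the 4 libraries was left out. The calls of XTH15 and XTH22 were lost without either double mutant library, with adjusted p-values of 0.056 to 0.164, and that of XTH22 also without WT replicate 2 (0.132). Of 17 wall glycoproteins 3 fell: the proline-rich PRP2 (18.9 and 26.1 CPM to 8.05 and 7.37 CPM, -1.54 ± 0.19, adjusted p = 0.00516), the arabinogalactan protein AGP30 (14.5 and 31.2 CPM to 4.04 and 4.22 CPM, -2.45 ± 0.39) and the extensin EXT3 (-1.09 ± 0.22). AGP30 lay at 2.38 and 5.21 CPM in cob-6 and at 14.9 and 12.6 CPM in sfr6-3. Its double mutant libraries thus lay within the range of cob-6, and the test of the double mutant against cob-6 is not reported here. PRP2 stood at 30.4 and 28.3 CPM in cob-6 and 12.1 and 11.7 CPM in sfr6-3, and both double mutant libraries lay below all of these. The call of PRP2 held in all 4 leave-one-out fits, and those of AGP30 and EXT3 were lost without WT replicate 2 (adjusted p = 0.0643 and 0.365) and without either double mutant library (0.0544 to 0.177). Outside the list of 16 peroxidases, edgeR called PER21 (-2.10 ± 0.28, adjusted p = 0.00626) and PER69 (-1.06 ± 0.22, adjusted p = 0.0465) lower. Both were picked after their values were seen. Within the lists, the pectin methylesterase PME17 was 1 of 10 pectin genes to fall (-1.34 ± 0.21), and PER34, a wall peroxidase, 1 of 16 peroxidases (-1.34 ± 0.20). Those calls were lost without double mutant replicate 2, at adjusted p-values of 0.088 and 0.0907, and that of PME17 without WT replicate 2 (0.071). The fit with WT replicate 2 alone called 4 wall glycoproteins and 1 pectin gene lower, and of the peroxidases 3 lower and 1 higher.

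Among 13 genes of primary wall cellulose synthesis 0 were called with edgeR. Only 0.846% of all genes were called, so 0 of 13 does not mark the list as unchanged. The list median was -0.26, or -0.38 with WT replicate 2 alone. Of the 13 changes 12 were below 0, and 7 genes were lower without overlap, against 22.4% of all genes. The smallest p-values were those of KOR1, a membrane-bound cellulase of the synthesis complex, at 497 and 723 CPM in WT and 455 and 392 CPM in the double mutant (-0.53 ± 0.20, adjusted p = 0.261), and of the catalytic subunit CESA1, at 566 and 770 CPM against 543 and 439 CPM (-0.44 ± 0.18, adjusted p = 0.282). For both genes the groups did not overlap, but the gap between them was smaller than that between the WT libraries. At an unadjusted p below 0.05 4 genes of this list were lower and 0 higher, against 8.44% and 6.02% of all genes, and DESeq2 called 0, against 3.44%. Of 16 secondary wall genes 0 were called with both WT libraries or with WT replicate 2 alone, with medians of -0.01 and -0.12, and FLA11, a fasciclin-like arabinogalactan protein, had the smallest p (7.09 and 5.44 CPM against 9.13 and 13.1 CPM, adjusted p = 0.2). It was the sole secondary wall gene at an unadjusted p below 0.05. No gene of the list was called by DESeq2 (0), and FLA11 was called higher with the other 7 libraries taken off WT replicate 1 (adjusted p = 0.0484). LAC17, which had the next, shares most of its reads with another gene, only 30.6% of them being unique, and its groups overlapped.

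A few genes of flavonoid and glucosinolate metabolism were called lower. Of 15 tested flavonoid genes 3 were called lower and 0 higher, against 0.8% lower of all genes, with a list median of -0.84; with WT replicate 2 alone 3 were called lower and the median was -0.75. CHS, the first enzyme of the pathway (AT5G13930, chromosome 5, 4488688 to 4490264), went from 92.4 and 125 CPM to 30.2 and 27.9 CPM (-1.90 ± 0.29, adjusted p = 0.0107), with sfr6-3 at 31.9 and 68.6 CPM and cob-6 at 101 and 120 CPM. MYB12, an activator of flavonol synthesis, went from 6.04 and 9.82 CPM to 2.76 and 1.88 CPM (-1.77 ± 0.37, adjusted p = 0.0497). F3H, which acts after CHS, went from 34.5 and 58.6 CPM to 13.2 and 10 CPM (-2.0 ± 0.27), but only 12.9% of its reads were unique, and on unique reads its adjusted p was 0.236, so its level is uncertain. All 3 calls were lost without double mutant replicate 2, with adjusted p-values of 0.0558 to 0.173, and that of MYB12 also without WT replicate 2 (0.499) and without double mutant replicate 1 (0.0513). The list median moved to -0.24 with at least 10 reads required in each of the 4 libraries and to -1.69 without double mutant replicate 1. TGG2 (AT5G25980, chromosome 5, 9072727 to 9075690), a myrosinase that hydrolyses glucosinolates, went from 143 and 265 CPM to 48.8 and 49.8 CPM (-2.04 ± 0.24, adjusted p = 0.00498; -2.43 with WT replicate 2 alone). The sfr6-3 libraries, at 63.7 and 79.9 CPM, were low as well and those of cob-6, at 267 and 281 CPM, were not, and the call held without any 1 of the 4 libraries. TGG2 was the sole called gene of 22 in the glucosinolate list, whose median was 0.18. Beside WT replicate 2 alone 2 members were called higher and 2 lower and the median was 0.43, and DESeq2 called 1 higher and 2 lower. IGMT1, which methoxylates indole glucosinolates and is not in that list, went from 34.7 and 74 CPM to 8.75 and 8.99 CPM (-2.61 ± 0.42); without double mutant replicate 1 or 2 its adjusted p was 0.0577 or 0.103.

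Hormone and defence lists held few calls, and with 0.846% of all genes called, 0 calls do not mark a short list as unchanged. In the list for jasmonate synthesis and signalling through MYC factors, 1 of 18 genes was called, the repressor JAZ9, which fell from 12.7 and 17.8 CPM to 4.39 and 5.57 CPM (-1.60 ± 0.24, adjusted p = 0.0107; 0.0614 without WT replicate 2), while the list median was 0.54. In the fit with WT replicate 2 alone 1 member of that list was called higher and 1 lower and the median was 0.94, with the other 7 libraries taken off WT replicate 1 the calls were 4 higher and 1 lower, and DESeq2 called 1 each way. In the list for joint jasmonate and ethylene defence, 1 of 3 tested genes was called: PR4, a chitin-binding protein, which fell from 45 and 59.7 CPM to 14.5 and 25 CPM (-1.39 ± 0.27, adjusted p = 0.0391), with sfr6-3 at 16.7 and 22.5 CPM and cob-6 at 57.2 and 86.1 CPM. Without WT replicate 2 or double mutant replicate 1 its adjusted p was 0.172 or 0.0784. Among 16 salicylic acid defence genes 0 were called, the smallest p-values being those of FMO1 (0.77 and 0.325 CPM against 3.65 and 1.59 CPM, adjusted p = 0.227) and NUDT6 (1.5 and 0.771 CPM against 0.272 and 0.269 CPM, adjusted p = 0.25), the 2 with an unadjusted p below 0.05, and DESeq2 called 0. Of 14 genes of the response to patterns and wall damage 0 were called, 2 were lower at an unadjusted p below 0.05 and DESeq2 called 1, with WRKY33 at 19.8 and 20.1 CPM against 15.7 and 14.2 CPM (adjusted p = 0.323). PGIP1, an inhibitor of fungal polygalacturonases, was at -0.99 with an adjusted p of 0.0751, and 10.6% of its reads were unique. It was called with WT replicate 2 alone (-1.27, adjusted p = 0.00678) and with the other 7 libraries taken off WT replicate 1 (-1.38, adjusted p = 0.0142). The median of that list was -0.26, or -0.04 with WT replicate 2 alone. Of 13 early auxin response genes 0 were called with both WT libraries (5 lower at an unadjusted p below 0.05, against 8.44% of all genes, and 2 lower with DESeq2) and 4 were called lower with WT replicate 2 alone, against 2.37%, namely IAA1, IAA2, IAA3 and GH3.5 (-1.53, -1.51, -1.16 and -0.99); the list median was -0.67, or -0.27 without WT replicate 2. Of 14 abscisic acid and dehydration genes 0 were called with both WT libraries (4 lower at an unadjusted p below 0.05, 3 lower with DESeq2), and RD26 was called with WT replicate 2 alone (-1.26, adjusted p = 0.0151). LEA14 was not called in that fit (-1.03, adjusted p = 0.0745). In the clock list of 13 genes the MYB factor RVE1 fell from 50.4 and 85.3 CPM to 27.9 and 18.1 CPM (-1.56 ± 0.25, adjusted p = 0.0146), with adjusted p-values of 0.0637 without WT replicate 2 and 0.105 without double mutant replicate 2. It was the sole called clock gene, and with WT replicate 2 alone 4 were called lower and 1 higher.

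**Figure D4:**
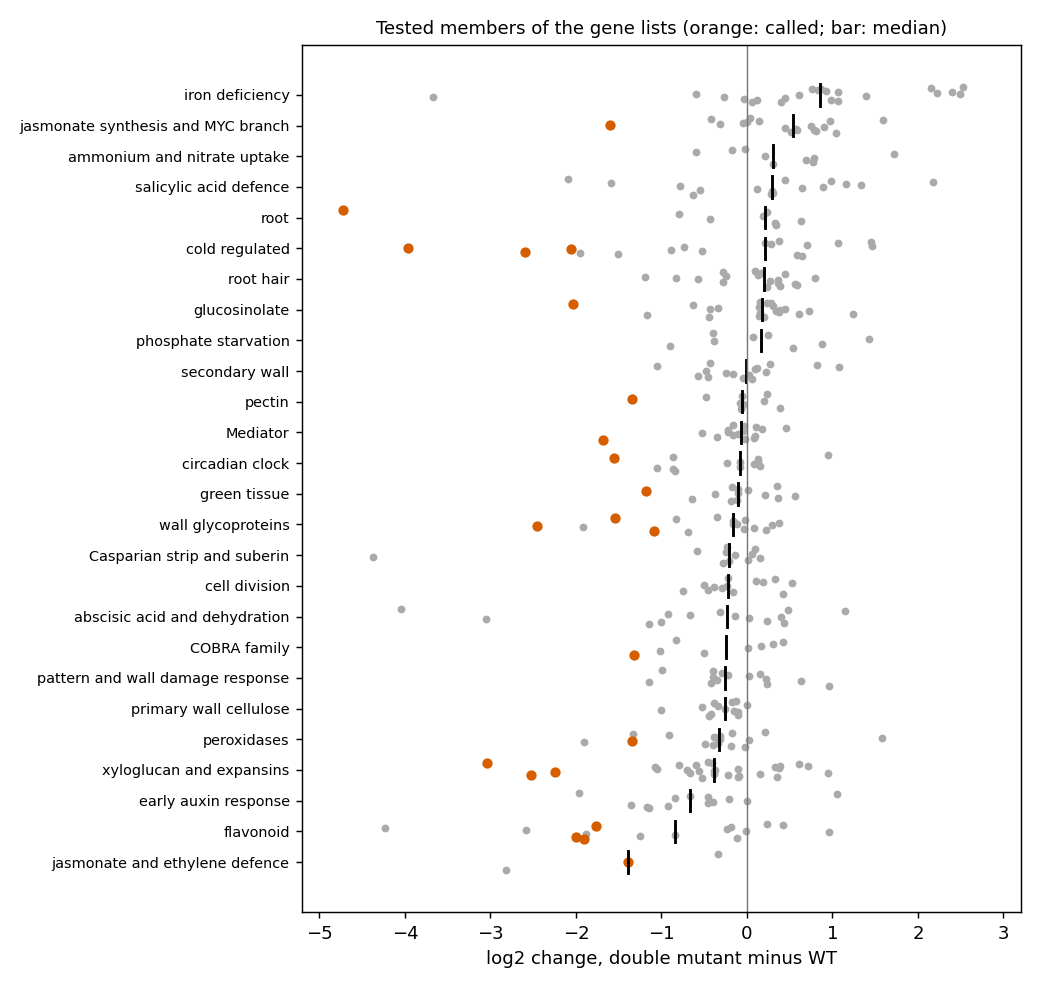
Change in the double mutant against WT (log2) of each tested member of 26 gene lists, ordered by list median; orange points are called genes, grey points are not, and black bars are medians. All orange points lie below 0, and the iron deficiency list has the highest median of those drawn, 0.85, with no orange point.

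Genes of the iron deficiency response had a list median above that of all genes, but none passed the test on both WT libraries. Of 22 tested genes of the iron deficiency response 0 were called with edgeR on both WT libraries. Unadjusted, 14 were higher and 1 lower at a p below 0.05, against 6.02% and 8.44% of all genes. The list median was 0.85, with 18 changes above 0 and 4 below, the lowest at -3.67. Against the same WT libraries the list median was 0.33 in cob-6 and 0.38 in sfr6-3. With WT replicate 2 alone 8 were called higher, against 1.09% of all genes, and with the other 7 libraries taken off WT replicate 1, 10 were, against 1.03%. BHLH38, a bHLH factor that rises in iron-starved roots, stood at 22.9 and 17 CPM in the double mutant against 5.98 and 0.487 CPM in WT, with cob-6 at 1.73 and 6.36 CPM and sfr6-3 at 8.62 and 7.59 CPM. BHLH39, its close relative, stood at 6.73 and 1.38 CPM in WT and 22.9 and 17.3 CPM in the double mutant. Both double mutant libraries were the highest of the 8 for these genes, and WT replicate 2 and cob-6 replicate 1 were the lowest. The changes were 2.49 (adjusted p = 0.153) and 2.22 (adjusted p = 0.176) with both WT libraries, and 5.34 (adjusted p = 0.00103) and 3.86 (adjusted p = 0.0154) with WT replicate 2 alone. PYE, a bHLH regulator of iron homeostasis, stood at 13.4 and 8.92 CPM in WT and 21.5 and 21.6 CPM in the double mutant, and OPT3, a phloem transporter, at 70.7 and 48.1 CPM against 115 and 103 CPM. FRO3, a ferric reductase, had the smallest p of the list (123 and 99 CPM against 271 and 168 CPM, 0.98 ± 0.25, adjusted p = 0.0986). Of the uptake genes of the root surface, the transporter IRT1 stood at 25.8 and 28.7 CPM in WT against 23.6 and 32.9 CPM in the double mutant, and the reductase FRO2 at 26.1 and 28.7 CPM against 28.2 and 31.1 CPM, with overlapping groups and adjusted p-values of 0.947 and 0.834. DESeq2 called 3 of the 22 higher.

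Some genes that hold, move, reduce or use iron, and HEMA1 of tetrapyrrole synthesis, were called lower in the double mutant. They were picked after their values were seen, from outside the list. Genes of these kinds that were tested and not called were not counted. FER1, the storage protein ferritin, stood at 21.9 and 35.7 CPM in the double mutant against 81.7 and 142 CPM in WT (-1.95 ± 0.39, adjusted p = 0.0435), with cob-6 at 211 and 85.2 CPM and sfr6-3 at 68.9 and 51.2 CPM, with 52.8% of its reads unique. YSL1, a transporter of metals bound to nicotianamine, went from 12.4 and 18.7 CPM to 3.85 and 2.88 CPM (-2.21 ± 0.33), and FSD1, an iron superoxide dismutase, from 1908 and 2400 CPM to 769 and 867 CPM (-1.40 ± 0.22). Both double mutant libraries were the lowest of the 8 for these 3 genes, and for FER1 the highest was cob-6 replicate 1, the library that was low in BHLH38. The ferric reductases FRO6 and FRO8 (-1.35 ± 0.19 and -1.15 ± 0.21), ABCI8, a scaffold protein of iron-sulphur cluster assembly in plastids (-1.47 ± 0.22), the rubredoxin-like ENH1 (-1.88 ± 0.27) and HEMA1, an enzyme of tetrapyrrole synthesis (-1.46 ± 0.21), were called lower too. Without double mutant replicate 2 the adjusted p-values of the 8 genes lay between 0.0507 and 0.116, without replicate 1 those of FER1, FSD1, ABCI8 and FRO8 between 0.0534 and 0.0961, and without WT replicate 2 those of FER1 and FRO8 were 0.177 and 0.154. Whether the iron supply of the seedlings differed between libraries was not tested.

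The genes called higher numbered 10. ICL (AT3G21720, chromosome 3, 7652487 to 7656011), isocitrate lyase of the glyoxylate cycle, which seedlings use to turn stored oil into sugar, stood at 99.7 and 85.2 CPM in the double mutant against 35.7 and 20.5 CPM in WT, with cob-6 at 16.4 and 18.3 CPM and sfr6-3 at 28.2 and 23 CPM. Both double mutant libraries were above all 6 others, with a change of 1.70 ± 0.23 and an adjusted p of 0.00626, or 2.17 with WT replicate 2 alone. Its partner in the cycle, MLS, at 12.5 and 15.1 CPM in WT and 17.7 and 13.3 CPM in the double mutant, was not called (0.17 ± 0.24, adjusted p = 0.775), nor was PCKA, of sugar synthesis from oil (0.05 ± 0.14, adjusted p = 0.904); both were picked after ICL was seen. Markers of seed storage, of which edgeR called 0, DESeq2 called 1 higher and 1 was higher at an unadjusted p below 0.05, summed to 3.73 and 49.6 CPM in the double mutant against 7.27 and 8.56 CPM in WT, with cob-6 at 0.269 and 0.821 CPM and sfr6-3 at 0 and 1.72 CPM; 6 of the 7 were tested. Of these 7 markers 4 had no read in double mutant replicate 1 and 0 lacked reads in replicate 2, and the list's median of 2.08 became -6.25 without replicate 2. Whether the rise of ICL relates to these markers was not tested. The change of ICL was of like size in both double mutant libraries, and its call held without replicate 2. AT3G02480, the largest rise of all 10, went from 13.6 and 6.81 CPM to 47.7 and 36.7 CPM (2.01 ± 0.31, adjusted p = 0.0119) and also held in all 4 leave-one-out fits.

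For 6 other higher genes the call was lost in fits that leave 1 library out, among them the fit with WT replicate 1 as the only wild type. BCB, a blue copper-binding protein, stood at 94.9 and 90.5 CPM in the double mutant against 47.7 and 47.3 CPM in WT, with cob-6 at 22.7 and 16.6 CPM and sfr6-3 at 33.8 and 25.9 CPM. The double mutant was thus above WT by 0.96 ± 0.18 (adjusted p = 0.0276), while the change of cob-6 from WT was -1.27 (adjusted p = 0.0251). GMI1, a DNA repair protein induced by irradiation, went from 9.78 and 5.96 CPM to 23.2 and 17.4 CPM (1.34 ± 0.26, adjusted p = 0.0377). CDI rose by 1.08 ± 0.19, RBG8, a glycine-rich RNA-binding protein, by 0.84 ± 0.17 and SIGD, a sigma factor of plastid transcription, by 0.77 ± 0.15. Without WT replicate 2 none of these 5 was called, with adjusted p-values of 0.146 for BCB, 0.285 for GMI1, 0.146 for CDI, 0.415 for RBG8 and 0.414 for SIGD. Without double mutant replicate 1 the p-values lay between 0.0533 and 0.0723, and without replicate 2 those of BCB, GMI1, RBG8 and SIGD lay between 0.0525 and 0.164. SAMDC2, an enzyme of polyamine synthesis, was called higher (1.37 ± 0.26), but 1.86% of its reads were unique and its adjusted p on unique reads was 0.274, so its level is uncertain. Without WT replicate 2 or either double mutant library its adjusted p was 0.0591 to 0.123.

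Many called genes were lower or higher in the double mutant than in both single mutants by level. Both double mutant libraries lay below all 4 single mutant libraries in 135 of the 171 lower genes (78.9%), beside 12.5% of all tested genes, and above all 4 in 10 of the 10 higher genes, beside 12.6%. The low or high values of the double mutant chose these genes, so the counts are a description. A gene among the 135 could be low in a single mutant as well. In sfr6-3 against WT edgeR called EXLB1 (-2.53, adjusted p = 0.0179) and UMAMIT17 (-2.15, adjusted p = 0.0446) lower. IAMT1 was not called there (-0.36, adjusted p = 0.997). AT5G01210 (-3.26) and AT3G05905 (-2.56) were among the 135, but only 0.41% and 0.947% of their reads were unique. Each overlaps another annotated gene, so their levels cannot be assigned. AT1G15125 was not among the 135, at 5.01 and 8.04 CPM in the double mutant against 37.5 and 50.2 CPM in WT (-2.73 ± 0.28, adjusted p = 0.00203). It stood at 84.6 and 102 CPM in cob-6 and at 5.23 and 2.96 CPM in sfr6-3. Only replicate 2 of the double mutant lay above both sfr6-3 libraries. MLP328, a major latex-like protein, was low in cob-6 as well, at 8.78 and 12.8 CPM in the double mutant against 26.3 and 56.2 CPM in WT (-1.92 ± 0.33, adjusted p = 0.022), with cob-6 at 7.45 and 10.2 CPM and sfr6-3 at 18 and 12.7 CPM, a call lost without WT replicate 2 (0.122) and without either double mutant library (0.0697 and 0.0635). These genes were chosen after their values were seen.

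The mean of the double mutant was nearer to sfr6-3 than to cob-6 in 141 of the 181 called genes (77.9%), beside 52.6% of all tested genes. It lay below both single mutant means in 158 of the 171 lower genes (92.4%), beside 38.3% of all genes. In the 10 higher genes it lay above both, beside 37.1%. For a gene below both, nearer sfr6-3 says only that sfr6-3 was the lower single mutant, and the double mutant's own values chose these genes. The contrast of sfr6-3 with cob-6 compares neither the double mutant nor WT, but its spread was estimated over all 8 libraries in the same fit that chose the 181 genes, so it is no independent support. It called 227 of 21384 genes (1.06%), 164 lower (0.767%) and 63 higher (0.295%) in sfr6-3. Of the 181 genes it called 36 (19.9%), 33 lower and 3 higher in sfr6-3 than in cob-6. Of the 171 lower genes 135 (78.9%) had a lower mean in sfr6-3 than in cob-6, beside 49.9% of all genes, and their median difference was -0.50 (log2). RD29A (-3.35, adjusted p = 0.00207), COR413IM1 (-2.80, adjusted p = 0.0237), EXLB1 (-2.66, adjusted p = 0.00291) and TGG2 (-1.93, adjusted p = 0.00316) were called lower in sfr6-3 in that contrast. AGP30 was called the other way (1.86, adjusted p = 0.0465), and TIP2;3 was at 2.15 with an adjusted p of 0.109.

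The genes that the authors' deposited table lists as changed in cob-6 and no longer in the double mutant number 147, and 146 were tested. With edgeR 0 of them were called in the double mutant against WT, beside 0.846% of all genes, and DESeq2 called 0. Unadjusted, 31 (21.2%) passed 0.05 in edgeR, against 14.5% of all genes. In cob-6 against WT the same edgeR test called only 8 of the list, so the 0 does not measure a loss of the cob-6 change. Their median change was -0.17 in the double mutant and -0.59 in cob-6, and their median absolute change was 0.34 and 0.86, beside 0.25 and 0.17 over all genes; both comparisons share the WT libraries. As the authors picked the list on these samples, its small change in the double mutant is no independent evidence. With WT replicate 2 as the only wild type 8 of 147 tested (5.44%) were called in the double mutant, 7 of them higher, against 3.45% of all genes, and no result about the list is read from that count. PER52, a peroxidase, was at 3.95 (adjusted p = 0.00654), EXT10, an extensin, at 1.26 (adjusted p = 0.0207) and PRP3, a proline-rich protein of root hairs, at 1.09 (adjusted p = 0.0458). PRP3 stood at 25.1 and 41.5 CPM in the double mutant against 29.1 and 15.7 CPM in WT, with cob-6 at 55.4 and 47.6 CPM and sfr6-3 at 15.7 and 16 CPM, and WT and double mutant libraries overlapped.

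Nutrient, growth and tissue lists held few calls, and here too 0 calls in a short list do not mark it as unchanged, with 0.846% of all genes called. The ammonium transporters AMT1;3 and AMT1;2 stood at 34.2 and 31.5 CPM against 52.9 and 53.5 CPM (0.69 ± 0.15, adjusted p = 0.0591) and at 54.9 and 41 CPM against 79.5 and 84.2 CPM (0.77 ± 0.17, adjusted p = 0.071). AMT1;3 was at 15.7 and 15 CPM in cob-6 and 59.5 and 74 CPM in sfr6-3, and with WT replicate 2 alone its adjusted p was 0.0601 and that of AMT1;2 0.0168. Of the 9 ammonium and nitrate uptake genes 0 were called with edgeR, 3 were higher and 1 lower at an unadjusted p below 0.05, and DESeq2 called 3 higher and 1 lower. On unique reads edgeR called AMT1;3 (adjusted p = 0.0474), and with the other 7 libraries taken off WT replicate 1 it called 3 of the list higher and 1 lower. With edgeR 0 were called of 8 phosphate starvation genes, 13 cell division genes, 11 genes of the Casparian strip and suberin and 18 root hair genes, with medians of 0.16, -0.22, -0.21 and 0.20. At an unadjusted p below 0.05 these lists held 2, 3, 1 and 0 genes, and DESeq2 called 0, 0, 1 and 0. The fit with WT replicate 2 alone called 1 root hair gene, 1 green tissue marker and 1 uptake gene higher, and 0 of the phosphate, division and Casparian strip genes. TIP2;3 was the sole called gene of 8 root markers. PSAN, a subunit of photosystem I, was the sole one of 13 green tissue markers (464 and 702 CPM against 228 and 288 CPM, -1.18 ± 0.20, adjusted p = 0.0196; 0.0544 to 0.108 without WT replicate 2 or either double mutant library). Pollen markers summed to 0.15 to 1.05 CPM and flower markers to 7.02 to 13.9 CPM in all libraries, and 0 of 1 and 0 of 3 tested were called with edgeR or DESeq2, 0 and 1 having an unadjusted p below 0.05.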

How the data were processed

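Whole-seedling RNA was sequenced in 8 libraries of 4 genotypes, grouped by sample title and genotype label. The authors deposited whole-number counts per gene and library (total, unique, exon and intron gene reads), per the file headers. They also deposited RPKM, used here for no result, a score (a signed fold of the double mutant against cob-6) with a p-value, used for no result, and a list of genes. The aligner, the counter, how strand was used and the genome build of the counts are each not given in the sources used here. Gene starts are printed counted from 1, 1 above the deposited ones. Gene symbols and promoter sequences come from RefSeq (TAIR10.1), whose coordinates 10599 of the 32835 genes with a RefSeq entry matched exactly. Of 406 listed loci 397 were paired with the listed symbol by the table or the reference.

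The test was edgeR 4.0.16's quasi-likelihood test in R 4.3.3 on total gene reads, with TMM scaling, genes kept by filterByExpr, 1 mean per genotype over all 8 libraries, 4 residual degrees of freedom and Benjamini-Hochberg adjustment over all 21384 genes, with a call at 0.05. The biological coefficient of variation was 0.214. CPM are reads scaled to the TMM-adjusted library total, and changes are log2 with standard errors. On simulated counts for this comparison, over 21109 genes, the test recovered 53 of 100 genes set to change 2-fold and 85 of 100 set to change 4-fold and made 13 false calls; these libraries were drawn independently, unlike WT replicate 1. Alternatives were unique and exon reads, other scalings and filters, DESeq2 1.42.0, a replicate block, single libraries left out and the 7 other libraries taken off WT replicate 1.

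Named genes were COB and MED16, up to 12 largest rises and falls among called genes with a symbol, no overlap and a mean log2 CPM (prior count 2) of at least 1, and from each of 29 lists the called members (up to 5) or else the 2 with the smallest p. Not every such gene is described, and others are said to be picked later; the further list members named for calls with WT replicate 2 alone, IRT1, FRO2, COR15A and the CBF genes, AT3G02480 and the genes without reads were also picked after their values were seen. The members and lists were chosen with earlier results of these data known. Replicate numbers did not pair the libraries.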

Additional observations from a re-analysis of the deposited data

How the results depend on the processing

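The planned count was 181 (10 higher, 171 lower). Counts within 1.5 times of it came from unique reads (228, but 21 higher), exon reads (176), RLE (181) or upper quartile scaling (190) and at least 10 reads per library (186). Larger counts came from no filter (1185, 361 higher and 824 lower), DESeq2 (736, 149 and 587), WT replicate 1 left out in unique reads (850, 282 and 568) and the other 7 libraries taken off it (748, 217 and 531); a smaller one came from the 4 compared libraries fitted alone (59, 2 and 57), which share fewer degrees of freedom. For the other differences the cause was not tested. Leaving out 1 library gave 75 to 767 calls, 5 to 241 higher and 57 to 526 lower, and shared 51 to 181 with the planned calls. The replicate block gave 176 (153 shared), while deviations of same-numbered libraries correlated at -0.0743 to 0.0494, so the block stands for no known pairing.

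COB was at -1.33 (adjusted p = 0.0864) with the 4 libraries alone and at -0.91 to -1.64 over the fits that leave 1 out, and MED16 was at -1.41 to -1.97. The share of called genes nearer sfr6-3, 77.9%, was 64.3% when WT replicate 1 was left out, and 67.2% and 80.3% when replicate 1 or 2 of the double mutant was. DESeq2, added after seeing the data, called 510 genes in sfr6-3 against cob-6 where edgeR called 227. A pair of uncalled markers changed sign: AGP6, at 0.29, was at -0.83 without double mutant replicate 1 and 0.93 without replicate 2, and OLEO1, at 2.38, was at 3.34 and -8.87. Of the other values for named genes and list medians 1201 stayed on their side of the threshold or within the spread, 86 fell below the threshold, 56 passed it and 46 medians moved. The replicate block changed 3 named calls, those of RBG8, SIGD and MYB12.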

Other observations

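Values of called genes outside the lists, all picked after their values were seen, showed further groups. Of 8 tested latex-like proteins (symbol MLP and a number) MLP328, MLP329 and MLP34 were called lower in the double mutant, against 0.8% of all genes. The other 5 were not called, at -0.49 to 0.50. The family was picked for its called members, so the count is a description. MLP423, at 0.50, was called higher with WT replicate 2 alone (adjusted p = 0.0224). MLP329 stood at 19.5 and 23.4 CPM in the double mutant against 56.8 and 123 CPM in WT (-2.06 ± 0.29, adjusted p = 0.00881 in edgeR's quasi-likelihood test), with cob-6 at 32.9 and 26.8 CPM and sfr6-3 at 51.5 and 40.6 CPM, below all other libraries. MLP34 stood at 239 and 507 CPM in WT and 110 and 115 CPM in the double mutant (-1.73 ± 0.29), a call lost without either double mutant library (adjusted p = 0.0647 and 0.109). AT5G38020, a gene without a symbol, stood at 0.389 and 0.188 CPM in the double mutant against 7.68 and 11.4 CPM in WT (-5.09 ± 0.43, adjusted p = 0.000652), with cob-6 at 9.03 and 8.78 CPM and sfr6-3 at 1.56 and 1.61 CPM, and it was called whichever of the 4 libraries was left out. GA20OX2, an enzyme of gibberellin synthesis, went from 3.12 and 6.33 CPM in WT to 0.505 and 0.538 CPM (-3.15 ± 0.47, adjusted p = 0.0107), with adjusted p-values of 0.0762 without WT replicate 2 and 0.0525 without double mutant replicate 2.

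Of 6 tested sigma factors of plastid transcription 1 was called lower, 1 higher and 4 not at all. Over all genes 0.8% were called lower and 0.0468% higher, and this family too was picked for its called members. SIGA stood at 94.3 and 90.6 CPM in WT and 46.1 and 52.2 CPM in the double mutant (-0.91 ± 0.17, adjusted p = 0.0342), while SIGD went from 25.2 and 21.5 CPM to 39 and 40.7 CPM (0.77 ± 0.15, adjusted p = 0.0374). Both calls were lost when WT replicate 2 or either double mutant library was left out, with adjusted p-values of 0.0773 to 0.102 for SIGA and 0.0533 to 0.414 for SIGD. The copies AT3G28290 and AT3G28300, both annotated AT14A, had nearly the same values, at 8.44 and 8.32 CPM and 8.33 and 8.56 CPM in WT and 2.64 and 1.18 CPM and 2.57 and 1.21 CPM in the double mutant, and counting may have split their reads, so they are uncertain as separate genes.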
